A study of Mus musculus with 4 samples.

Results

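The genes described here encode the proteins of the cytosolic ribosome, as measured in liver RNA of mice with 4 expression arrays (Affymetrix Mouse Gene 1.0 ST). They were taken by symbol: every gene whose platform symbol starts with Rpl or Rps followed by a digit or the letter p, without the Rps6k kinases and without pseudogenes marked "-ps". The rule found 62 of the 19938 named genes, read by 214 probe sets that carry 1 symbol. Another 20 matching symbols, among them Rpl3, Rpl11, Rpl13a, Rpl15, Rps16, Rps24, Rps26 and Rps27, were listed only on probe sets that name several genes and are not among the 62. Of the 62, 59 exceeded the expression filter (a mean over the 4 arrays above 3.34, the 40th percentile of all genes) and were tested. The other 3, Rpl3l, Rpl10l and Rpl39l, are paralogs of core subunit genes with mean values between 2.16 and 3.24. The symbol rule also takes in Rps19bp1, which encodes a protein that binds Rps19 and is not a subunit, and copies of subunit genes such as Rpl32l, Rps4l and Rps23rg1.

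Each array held RNA combined from 3 pairs of mice, and each of the 4 groups is 1 array. The groups were wild type for SIRT6 (WT) at 2 months, WT at 8 months, SIRT6Co/Co ;Alb-Cre (labelled KO) at 2 months and the same genotype at 8 months. Cre under the albumin promoter acts mainly in hepatocytes, so other cells of the liver may keep the conditional allele in the KO-labelled animals. The labels used here name no strain, sex or feeding state. The Sirt6 probe set read 4.55, 4.50, 4.54 and 4.46 in that order of groups on the log2 scale, so it did not separate the labels, and which part of the transcript it covers is not known here. Every direction below therefore rests on the labels.

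A ribosome has a small subunit, which holds the messenger RNA and decodes it, and a large subunit, which joins the amino acids and lets the new chain out through a tunnel. Cells make most of these proteins in equal numbers, and their messenger RNAs typically start with a run of pyrimidines, the terminal oligopyrimidine tract, through which mTOR signalling sets their translation. Many ribosomal protein promoters carry binding sites for ETS family factors close to the start. SIRT6 has been described as a brake on Myc at ribosomal protein genes in tumour cells, which gives the family its interest in a SIRT6 mutant liver.

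The promoters of the 4 genes that passed the test of genotype below are shown with their ETS core in capitals (CGGAAG, or CTTCCG where it lies on the other strand). Each runs from 100 bases before the annotated start through the first 20 bases of the transcript, from RefSeq on build GRCm38.p6, 5′ to 3′ along the gene. Rps3a1 lies at chr3:86142649-86142768 on the minus strand, Rps27l at chr9:66945986-66946105 on the plus strand, Rps18 at chr17:33955646-33955765 on the minus strand and Rps19 at chr7:24884492-24884611 on the plus strand. For Rps27l and Rps19 the first listed of several starts was used.
Rps3a1: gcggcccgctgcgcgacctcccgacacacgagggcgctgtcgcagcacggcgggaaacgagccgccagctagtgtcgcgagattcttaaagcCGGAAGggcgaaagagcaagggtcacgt
Rps27l: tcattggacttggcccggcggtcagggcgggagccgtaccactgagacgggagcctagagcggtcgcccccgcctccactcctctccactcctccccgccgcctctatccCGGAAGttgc
Rps18: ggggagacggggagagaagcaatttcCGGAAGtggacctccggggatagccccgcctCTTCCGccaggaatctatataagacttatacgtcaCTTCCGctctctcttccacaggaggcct
Rps19: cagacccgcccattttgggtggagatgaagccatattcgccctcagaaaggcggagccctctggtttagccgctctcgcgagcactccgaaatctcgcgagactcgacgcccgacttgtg
The Rps18 stretch held the core 3 times, those of Rps3a1 and Rps27l 1 time each and that of Rps19 0 times. RefSeq gave promoter windows of 250 bases before to 50 after the start for 50 of the 62 genes, 59 windows in all. CGGAAG on either strand was in 36 of these 59 windows (61.0%), against 16.9% of all 32851 windows and 21.1% of the 21262 windows of protein-coding genes. CACGTG, the E-box that Myc can bind and which reads the same on both strands, was in 7 of the 59 (11.9%), against 7.15% of all. The motifs do not overlap, several windows of a gene can share bases, and a match is a run of letters and not a shown binding site. A run of at least 8 pyrimidines within the 20 bases before and 30 bases after the start was found in 25 of the 59 windows (42.4%), against 19.0% of all windows.

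Most of the family stood lower on the array labelled KO at 8 months than on the WT array of that age, and for most members by less than 1.2-fold. KO minus WT at 8 months was below 0 for 52 of the 59 tested genes, against a background of 49.7% of all 11963 tested genes, and its median was -0.16 on the log2 scale against 0.00 for all tested genes. At 2 months 25 of the 59 were below 0 against 47.4% of all genes, with a median of 0.01 for the family and 0.01 for all genes. The direction at 2 months depended on the scaling: 38, 34 and 40 of the 59 were lower with quantile normalization again, with cyclic loess and with centring on the brightest 20% of genes, and the median was then -0.062, -0.053 and -0.074. At 8 months 52 of 59 were lower under each of these and under median centring. The array labelled KO at 8 months gave the lowest of the 4 values for 46 of the 59, whereas this array was lowest for 24.8% of all genes. Under quantile normalization again, cyclic loess and brightest-gene centring it was lowest for 40, 39 and 42 of the 59, against 21.2%, 21.8% and 18.1% of all genes. With 1 array per group none of these differences has a test. RMA scales the arrays to each other at the level of probes, so its values show only changes relative to the other genes. The deposited probe set medians still differed slightly, at 3.57 and 3.58 in WT at 2 and 8 months and 3.52 and 3.56 in KO. In bulk liver RNA, fewer cells of a type and less RNA per cell cannot be told apart.

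**Figure D1:**
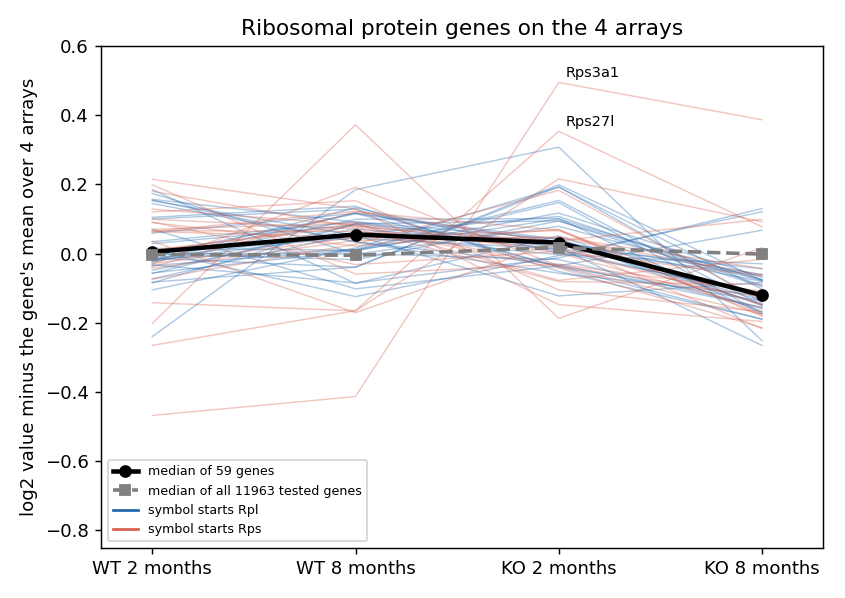
Log2 value of each of the 59 tested ribosomal protein genes on the 4 arrays, minus the gene's own mean over the 4 arrays (thin lines, coloured by whether the symbol starts with Rpl or Rps). The black line is the median of the 59 and the grey dashed line that of all 11963 tested genes, and 46 of the 59 have their lowest value on the KO array at 8 months.

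The pattern had the same direction in both subunits. Of 35 tested genes of the Rpl series, 32 were lower in KO at 8 months, with a median of -0.15, and of 24 of the Rps series 20 were lower, with a median of -0.20. At 2 months the medians were 0.04 and -0.01. At 8 months 12 of the 59 (20.3%) were at least 1.2-fold lower (background 11%) and 2 at least 1.2-fold higher (3.39%, background 12%). Those at least 1.2-fold lower were Rpl8, Rpl10a, Rpl22, Rpl34, Rpl36a, Rps9, Rps13, Rps14, Rps18, Rps19, Rps20 and Rps23rg1, and the 2 that were higher were Rps3a1 and Rps15a.

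At 1.5-fold, 2 of the 59 were apart at 2 months (Rps3a1 and Rps27l, background 6.37%) and 1 at 8 months (Rps3a1, background 4.34%). No member was 1.5-fold apart between the ages within WT (background 0.652%) or within KO (background 0.652%). The quartiles of the family at 8 months were -0.26 and -0.08, where those of all tested genes were -0.13 and 0.14.

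**Figure D2:**
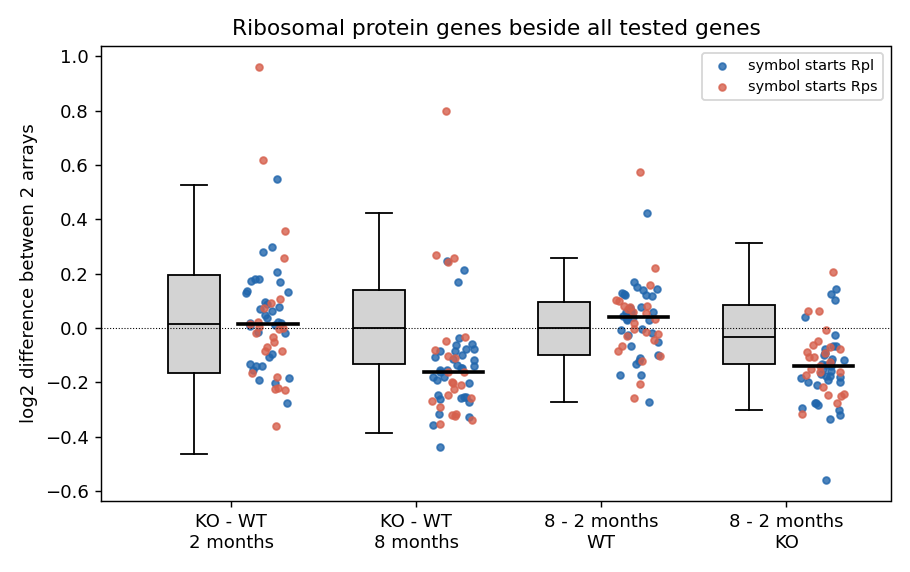
Log2 difference between 2 arrays for each of the 59 tested ribosomal protein genes (points, blue for Rpl and red for Rps symbols, with a black bar at their median) beside all 11963 tested genes (grey boxes with the median and quartiles, whiskers at the 5th and 95th percentiles). The family's medians are 0.01, -0.16, 0.04 and -0.14 from left to right.

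In the large subunit the most common pattern was a level slightly higher in KO at 2 months and lower in KO at 8 months. Rpl5, which carries the 5S ribosomal RNA into the subunit and takes part in the p53 checkpoint of ribosome assembly, read 9.04 and 9.16 in WT at 2 and 8 months and 9.33 and 9.04 in KO. Rpl24, at the bridge between the subunits, read 8.63 and 8.68 in WT and 8.91 and 8.64 in KO. Rpl38, known from mouse mutants with skeletal patterning defects, read 8.45 and 8.62 in WT and 8.63 and 8.44 in KO. Rpl5 and Rpl24 were high on the KO array at 2 months, Rpl38 there and in WT at 8 months, and in all 3 the WT and KO values overlapped. Across the family 29 of the 59 were higher in KO at 2 months and lower at 8 months, against 17.8% of all genes, a count that moves with the scaling at 2 months given above.

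Other large subunit genes were lower in KO at both ages. Rpl8, a protein next to the centre where peptide bonds form, read 8.97 and 8.90 in WT at 2 and 8 months and 8.83 and 8.55 in KO. Rpl10a, a protein of the L1 stalk, read 9.15 and 9.18 in WT and 9.01 and 8.86 in KO. Rpl22, an RNA-binding subunit, read 6.54 and 6.58 in WT and 6.39 and 6.25 in KO. In each of the 3 genes both KO values lay under both WT values, but none passed the additive limma model (adjusted p 0.080, 0.095 and 0.15 for means of -0.25, -0.23 and -0.24). In all 23 genes of the 59 (39%) were lower at both ages, against 31.8% of all tested genes. In 19 (32.2%) both KO arrays lay below both WT arrays, against 25.7%. Both counts rest in part on the signs at 2 months, which moved with the scaling as given above. Only 5 had both KO arrays above both WT arrays (Rpl12, Rps15a, Rps21, Rps27l and Rps3a1), against 29.1% of all genes.

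The stalk of the large subunit, where elongation factors dock, is formed by Rplp0, Rplp1 and Rplp2 on a base that includes Rpl12. Rplp0 read 9.98 and 9.87 in WT at 2 and 8 months and 9.78 and 9.71 in KO. Rplp1 read 9.58 and 9.48 in WT and 9.31 and 9.34 in KO, and with Rps2 it is 1 of 2 members whose lowest array was KO at 2 months. In each of these 2 genes that rests on 1 probe set. The Rplp1 probe sets differed by -0.42 and -0.13 at 2 months, and the second was lowest in KO at 8 months. The 3 Rps2 probe sets differed by -0.31, 0.05 and 0.01 at 2 months. Rplp0 and Rplp1 were lower in both KO arrays, with means of -0.18 (SE 0.07) and -0.21 (SE 0.08) that missed the threshold of the limma model (adjusted p 0.16 and 0.12). Rplp2 and Rpl12 were read by 1 dim probe set each, with means of 4.76 and 4.06. Their genotype differences were 0.18 and -0.15 for Rplp2 and 0.02 and 0.21 for Rpl12. Rpl4, a core protein whose extended loop reaches into the exit tunnel, read 10.42 and 10.54 in WT and 10.49 and 10.42 in KO, values that overlapped.

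The small subunit genes of the head and messenger RNA path were, like most of the family, lower in KO at 8 months. Of the 10 measured (Rps2, Rps3, Rps10, Rps12, Rps15, Rps18, Rps19, Rps20, Rps28 and Rps29), 10 were lower at 8 months, with a median of -0.24. The share was 88.1% in the family and 49.7% over all tested genes. At 2 months 8 were lower with a median of -0.08, against 42.4% of the family and 47.4% of all tested genes. Rps2, among these 8, was lower at 2 months in 1 of its 3 probe sets. Rps18 and Rps19 fell and the other 8 did not pass. In the family 3.39% fell and over all tested genes 4.26%. Rps14, a protein of the platform that helps form the decoding site, read 8.98 and 8.87 in WT and 8.76 and 8.58 in KO, a mean difference of -0.26 that missed the threshold (limma adjusted p 0.054). Rps29, a small zinc-binding protein of the head, read 7.55 and 7.51 in WT and 7.39 and 7.25 in KO, without passing (adjusted p 0.15). Rps6, the subunit phosphorylated by the S6 kinases, read 10.47 and 10.55 in WT and 10.56 and 10.47 in KO, a difference of 0.09 at 2 months and -0.08 at 8 months. The WT and KO values of Rps6 overlapped.

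Of the 19 genes listed for Diamond-Blackfan anaemia, an inherited failure of red cell production, 9 were measured and tested. Of these 7 (77.8%) were lower in KO at 8 months, with a median of -0.14, against 88.1% of the family and 49.7% of all tested genes. Of the 9, 1 fell, Rps19, where 3.39% of the family and 4.26% of all tested genes fell. Among the 3 measured X-linked members, Rpl10 read 11.06 and 11.13 in WT at 2 and 8 months and 11.07 and 11.05 in KO. Rpl36a and Rps4x differed between KO and WT by 0.13 and 0.02 at 2 months and by -0.27 and -0.20 at 8 months. All 3 were thus lower in KO at 8 months, as was most of the family. Xist, the transcript of the inactive X chromosome, read 4.42 and 3.08 in WT and 2.66 and 2.29 in KO, and its part in these values was not tested.

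In all 4 members passed the additive limma model of genotype and age, which weighs the mean KO minus WT difference against its departure from equality at the 2 ages. These were Rps3a1 and Rps27l, which rose, and Rps18 and Rps19, which fell. The share, 4 of 59 (6.78%), stood beside a background of 11.1% of all tested genes, with 2 of 59 higher (background 6.81%) and 2 of 59 lower (background 4.26%). At an unadjusted p under 0.05 the counts were 14 of 59 (23.7%) in the family and 25% of all genes. In this fit the share of called genes in the family was below that over all tested genes, but this order depended on the scaling. With quantile normalization again 11.9% of members and 11.8% of all genes were called, with cyclic loess 18.6% and 16.4%, and with centring on the brightest 20% of genes 27.1% and 16.5%.

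Rps3a1, a small subunit protein on the solvent side that is also bound by initiation factor eIF3, read 8.33 and 8.38 in WT at 2 and 8 months and 9.29 and 9.18 in KO. Both KO arrays lay well above both WT arrays. The difference was 0.96 at 2 months and 0.80 at 8 months (1.95-fold and 1.74-fold), a mean of 0.88 (SE 0.08) with a limma adjusted p of 1.3e-05, called in all 9 alternative analyses (adjusted p 1.5e-27 to 0.0025). This value comes from 1 probe set whose only listed accession is a cDNA clone. The 2 probe sets that list Rps3a1 together with another symbol read 9.82 and 9.84 in WT at 2 months and 9.94 and 9.94 at 8 months, and 10.16 and 10.05 against 9.91 and 9.87 in KO. Their genotype differences were 0.34 and 0.20 at 2 months and -0.03 and -0.07 at 8 months. These 2 were thus higher in KO at 2 months, by less, and not higher at 8 months, so the call for Rps3a1 rests on the single probe set.

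Rps27l, a paralog of Rps27 known as a p53 target, read 6.51 and 6.61 in WT at 2 and 8 months and 7.12 and 6.85 in KO. Both KO values exceeded both WT values, by 0.62 at 2 months (1.54-fold) and 0.24 at 8 months (1.18-fold). Its mean of 0.43 (SE 0.11) had a limma adjusted p of 0.021, and the call was lost when the filter or the intensity trend was left out (adjusted p 0.00077 to 0.088 over the 9 alternatives). Rps27l has 1 probe set and no shared ones.

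Rps18, which sits at the head of the small subunit and contacts the large one, read 9.99 and 10.02 in WT and 9.76 and 9.70 in KO. All 7 of its probe sets were lower in KO at both ages, by 0.19 to 0.28 at 2 months and 0.26 to 0.36 at 8 months, so that WT and KO arrays did not overlap in the gene's mean. The mean difference was -0.27 (SE 0.08), with a limma adjusted p of 0.036. Rps19, the gene most often mutated in Diamond-Blackfan anaemia, read 6.64 and 6.55 in WT and 6.28 and 6.23 in KO, a mean difference of -0.34 (SE 0.10) with an adjusted p of 0.039. The 3 probe sets that list Rps19 with a pseudogene, of which 2 hold identical values, differed by 0.05 to 0.07 at 2 months and by -0.35 to -0.23 at 8 months. Both calls were lost with no filter, with no trend and when arrays were centred on their medians, with adjusted p-values over the alternatives of 5.2e-05 to 0.17 for Rps18 and 0.0016 to 0.099 for Rps19.

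Normalization choices moved the number of members that fell much more than the number that rose. The degrees of freedom of the limma variance prior changed with them. They were 11.3 in the main fit, 40.7 with cyclic loess and infinite with brightest-gene centring, so the counts do not show the centring alone. The lowest adjusted p-values given above for the 4 called members all came from brightest-gene centring. With arrays centred on the brightest 20% of genes 2 members rose and 14 fell (23.7%, where 8.63% of all genes fell). With cyclic loess 2 rose and 9 fell (15.3%, against 7.36% of all genes), and with quantile normalization again 2 rose and 5 fell (8.47%, against 5.59%). With median centring 2 rose and 0 fell, where 3.49% of all genes fell. Rps14, Rpl8, Rpl10a and Rps29 were among those that fell under brightest-gene centring and under cyclic loess.

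**Figure D3:**
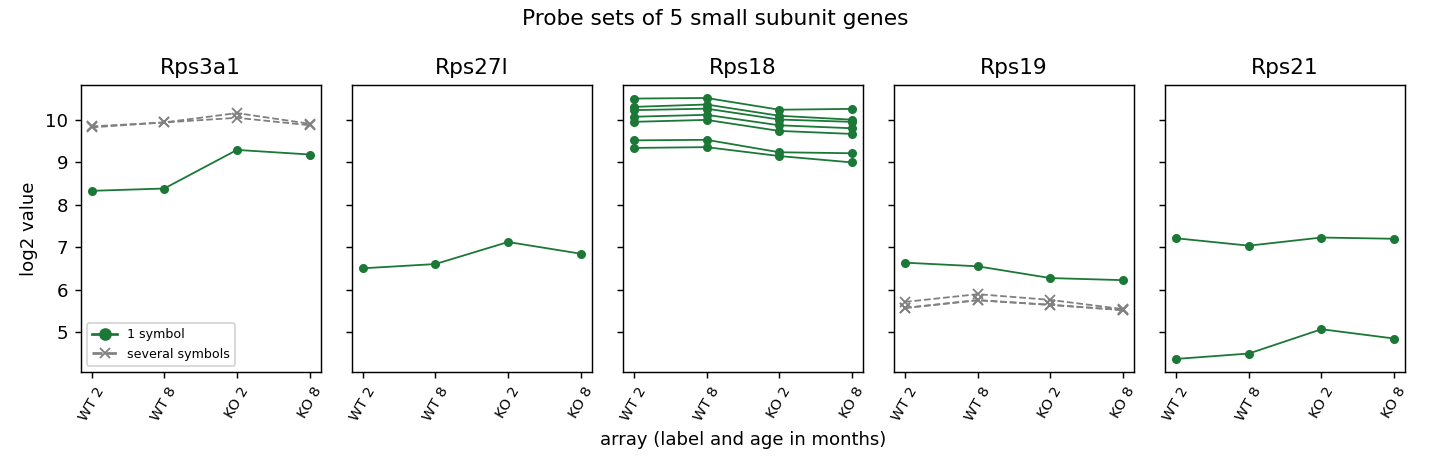
Log2 value of every probe set of 5 small subunit genes on the 4 arrays, in green for probe sets that name the gene alone and in dashed grey for those that name it with other genes. The green Rps3a1 line rises from 8.33 and 8.38 in WT to 9.29 and 9.18 in KO while the grey lines are higher in KO only at 2 months, and the lines of Rps18 all run lower in KO.

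Rps21, a small subunit protein, was higher in KO, with 5.79 and 5.77 in WT and 6.15 and 6.03 in KO, but missed the threshold (limma adjusted p 0.085). Its 2 probe sets differed. One, which lists only a predicted transcript, read 4.37 and 4.50 in WT and 5.07 and 4.85 in KO. The other, which lists the RefSeq messenger RNA, read 7.21 and 7.04 in WT and 7.23 and 7.20 in KO, a difference of 0.02 at 2 months and 0.16 at 8 months.

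The members that were not lower in KO at 8 months were 7, namely Rpl12, Rpl26, Rpl30, Rps15a, Rps21, Rps27l and Rps3a1, and they were looked at after their values were seen. Of these 7, 6 were read by 1 probe set and 6 had a mean below 8. Rps15a, for example, read 5.83 and 5.62 in WT and 5.83 and 5.89 in KO, and Rpl30 read 6.34 and 6.21 in WT and 6.33 and 6.45 in KO. For 5 of the 7, other probe sets listed the same symbol along with further symbols. All 25 of these shared probe sets were lower in KO at 8 months. The 8 that list Rpl12 had a median of -0.19, the 10 that list Rpl30 -0.05, the 3 that list Rpl26 -0.26 and the 2 that list Rps15a -0.05. In WT at 2 months, the median of the shared probe sets was 9.28 for Rpl12 and 10.8 for Rpl30.

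Probe sets of 1 gene were also compared across the rest of the family. Of 37 members with more than 1 distinct probe set, all probe sets were lower in KO at 8 months in 34 and none in 1, Rps21. At 2 months all were lower in 9, and in 14 of the 37 the probe sets of a gene had both signs, against 2 at 8 months. Rpl23a, with 11 distinct probe sets, ranged from 0.08 to 0.28 at 2 months and from -0.10 to -0.04 at 8 months. Rps25, with 6, ranged from 0.19 to 0.32 and from -0.22 to -0.10. Rpl36, with 9, was lower throughout, from -0.24 to -0.14 and from -0.20 to -0.06. The median range between the probe sets of a gene was 0.14 at 2 months and 0.08 at 8 months, so probe sets of a gene differed more at 2 months. Probe sets of a gene can hold the same probes (12 of the 214 repeated another's values exactly), so they are not independent measurements. They may also read near-identical gene copies together, which was not tested. Of the 239 probe sets that list a family symbol with other genes, 232 were lower in KO at 8 months (97.1%) with a median of -0.13. At 2 months 65 (27.2%) were lower, with a median of 0.06. Among all 21789 probe sets with 1 symbol, 49.5% were lower at 8 months and 55.4% at 2 months. Some symbols, such as Rpl21 and Rpl29, are on many of the 239, so these are shares of probe sets and not of genes.

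**Figure D4:**
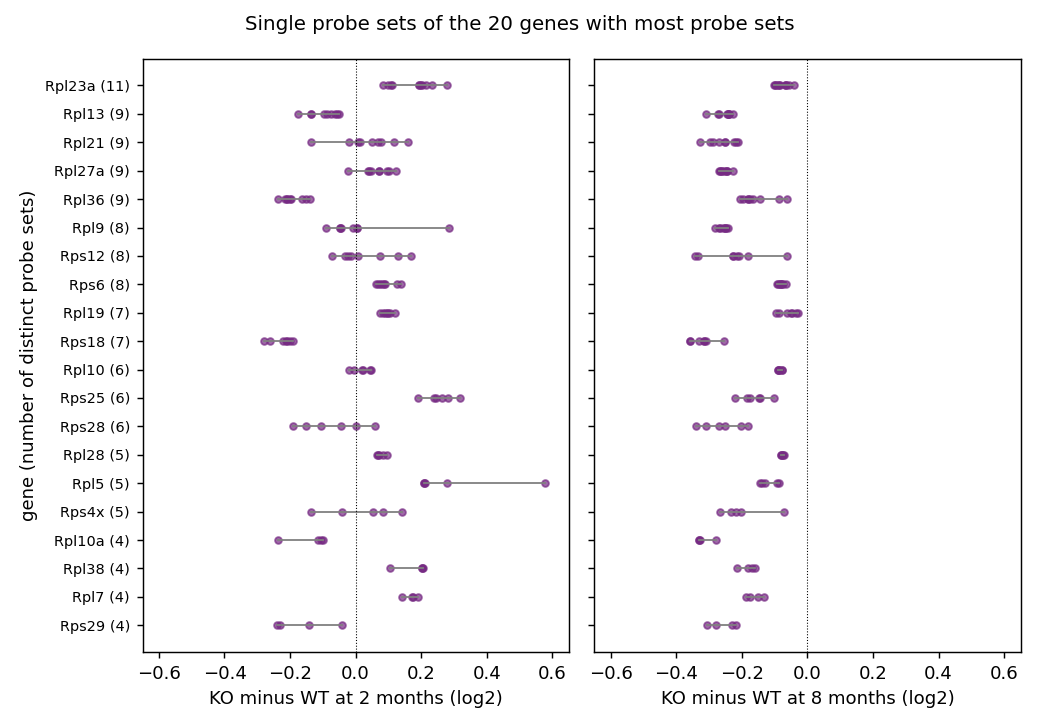
KO minus WT log2 difference at 2 months (left) and 8 months (right) of each distinct probe set of the 20 ribosomal protein genes with the most probe sets, with a line from the lowest to the highest. At 8 months every point lies below 0, whereas at 2 months genes such as Rps25 (0.19 to 0.32) and Rps18 (-0.28 to -0.19) lie on opposite sides.

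The genotype differences at the 2 ages, which share no array, were compared across the 59 genes. Their Pearson correlation was 0.52 and their Spearman correlation 0.31, and without Rps3a1 they were 0.27 and 0.27. Over all 11963 tested genes the values were 0.68 and 0.50. The genes of the family share their arrays and normalization, and these values are descriptions only. The difference at 8 months minus that at 2 months had a median of -0.18 in the family and -0.02 over all tested genes.

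**Figure D5:**
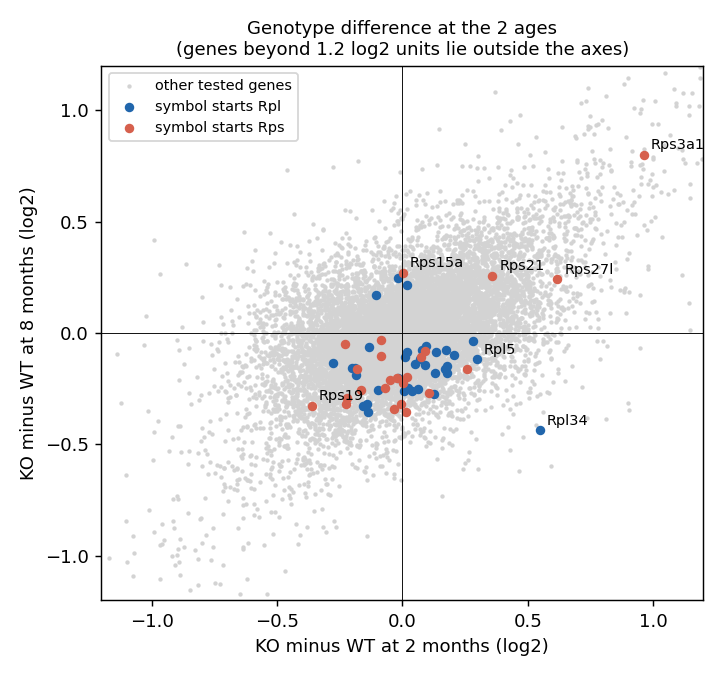
KO minus WT log2 difference at 2 months (horizontal) against 8 months (vertical) for the 59 tested ribosomal protein genes, coloured by symbol series, over all other tested genes in grey. The family lies mostly under the horizontal zero line, with 52 of 59 below it, and Rps3a1 stands apart at 0.96 and 0.80.

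Between the ages, the family's values were close together in WT and lower at 8 months in KO. In WT, 8 minus 2 months was below 0 in 24 of 59 genes (background 49.3%), with a median of 0.04 against 0.00 for all genes. In KO it was below 0 in 52 of 59 (background 57.8%), with a median of -0.14 against -0.03. The KO median was about -0.07 under quantile normalization again, cyclic loess and brightest-gene centring, with 45, 46 and 45 members below 0. The related gene lists described below leaned the same way in KO on the deposited values. Lower at 8 months were 27 of 32 initiation factor genes, 13 of 15 genes listed with an oligopyrimidine tract and 56 of 76 mitochondrial ribosome genes. The counts were 49 of 73 for genes that build the ribosome and 22 of 32 for the mTOR and Myc list. The KO change lay under the WT change in 47 of 59 genes, against 54.1% of all tested genes. These comparisons share their arrays with the genotype comparisons, so the low values in KO at 8 months enter both. The additive model called 0 of 59 members for age, where it called 1 of 11963 genes (0.00836%), and at an unadjusted p under 0.05 it held 2 members, Rpl14 and Rps23rg1, against 3.6% of all genes.

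Rpl14, a large subunit protein, read 6.56 and 6.29 in WT at 2 and 8 months and 6.43 and 6.23 in KO, lower at 8 months in both genotypes. Rps23rg1, a retrotransposed copy of Rps23, read 3.69 and 4.27 in WT and 3.71 and 3.91 in KO, the reverse direction near the filter. The other members with the lowest mean age difference were Rpl7l1, Rpl8, Rps4l and Rpl29, at -0.18, -0.17, -0.17 and -0.16, and the other highest were Rps2, Rps13, Rpl12 and Rpl4, at 0.07, 0.07, 0.05 and 0.03. All these members had a limma adjusted p of 1 for age.

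Of 5 listed ribosomal proteins whose symbols fall outside the rule 2 were measured, and 1 fell, where 4.26% of all tested genes did. Fau, whose product is a ubiquitin-like fusion that yields the small subunit protein eS30, read 8.37 and 8.32 in WT and 7.98 and 7.89 in KO, and fell with a mean of -0.41 (SE 0.08, limma adjusted p 0.0052). Rpsa, the laminin receptor homolog of the small subunit, read 8.33 and 8.24 in WT and 8.21 and 8.07 in KO, without passing (adjusted p 0.30).

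Of 15 measured genes for elongation factors and other transcripts with an oligopyrimidine tract, 0 passed, where 11.1% of all tested genes did. Of the 15, 12 were lower in KO at 8 months, against 49.7% of all tested genes, with a median of -0.16. The translocation factor Eef2 read 10.30 and 10.37 in WT and 10.12 and 10.08 in KO, and Eef1a1, which brings aminoacyl-tRNA to the ribosome, 12.53 and 12.56 in WT and 12.37 and 12.38 in KO. Both were lower in both KO arrays, but with adjusted p-values of 0.067 and 0.16. The nucleolar chaperone Npm1 differed by 0.90 at 2 months and -0.35 at 8 months. Of 32 initiation factor genes, Eif4g3, a scaffold of the cap complex, rose by 0.45 and Eif4h, a cofactor of the helicase eIF4A, fell by 0.29. Over all tested genes 6.81% rose and 4.26% fell. The list medians were 0.10 at 2 months and -0.06 at 8 months.

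Of 73 genes that build the ribosome 5 rose (6.85%, against 6.81% of all tested genes) and 0 fell (against 4.26%). In KO 71.2% of these genes were higher at 2 months, against 52.3% of all tested genes, and 61.6% at 8 months, against 49.8%, with medians of 0.13 at 2 months and 0.08 at 8 months. Those that rose were Mphosph10 (mean 0.72), Nop58 (0.64), Bysl (0.46), Heatr1 (0.36) and Utp6 (0.33), all of which act in processing of the small subunit precursor. The lowest by mean difference, neither of them called, were Ddx56, at -0.37 and -0.12, and Grwd1, at -0.38 and -0.06. In the mitochondrial ribosome, which is built from a separate set of proteins, 3 of 76 tested genes rose (Mrpl50, Mrpl19 and Mrps30, by 0.49, 0.48 and 0.37) and 2 fell (Mrpl23 and Mrpl30, by 0.48 and 0.38). These shares, 3.95% and 2.63%, stood beside 6.81% and 4.26% of all tested genes. The medians of that set were 0.11 at 2 months and 0.03 at 8 months. At 2 months 75% of the set were higher in KO, against 52.3% of all tested genes. At 8 months 36 of 76 (47.4%) were lower, against 49.7%.

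Of 32 genes that control ribosomal protein synthesis through mTOR and Myc, 1 rose and 1 fell, where 6.81% and 4.26% of all tested genes did. The transcription factor Myc read 5.04 and 4.90 in WT and 5.93 and 6.01 in KO and rose by a mean of 1.00 (SE 0.12, limma adjusted p 0.00011). Sesn1, a stress-induced inhibitor of mTOR complex 1, fell, from 5.69 and 5.74 in WT to 5.25 and 5.02 in KO (adjusted p 0.0079). The list medians were -0.05 and -0.13. Beside these values the ribosomal protein genes had medians of 0.01 and -0.16.

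Bright genes as a group also leaned low on the KO array at 8 months, though less. Among the 1141 tested genes with a mean above 8, 618 (54.2%) were lower in KO at 8 months with a median of -0.02, and this array was lowest for 35.3%. Of the 35 ribosomal protein genes with a mean above 8, 34 were lower and 29 had this array lowest. Between the ages in KO, 77.4% of the bright genes and 33 of these 35 were lower at 8 months. The cut at 8 was chosen after the data were seen. Hepatocyte markers were present at a median level of 11.9 with 0 of 7 called, where 6.81% of all tested genes rose and 4.26% fell. By sign, 6 of these 7 were lower in KO at 8 months, against 88.1% of the family and 49.7% of all tested genes. Their median was -0.04, and at 2 months 3 of the 7 were lower. Between the ages in KO, 7 of 7 were lower at 8 months with a median of -0.07, against 88.1% and 57.8%. Markers of other liver cells moved between the labels in part: 2 of 6 tested Kupffer cell markers rose, 1 of 6 endothelial markers rose, 1 of 7 stellate cell markers rose and 3 fell, 1 of 3 erythroid markers rose, and 0 of 4 lymphocyte and 0 of 3 cholangiocyte markers were called. Their summed log2 levels, in the order WT young, WT old, KO young, KO old, were 35.5, 34.7, 37.4 and 36.8 for 7 Kupffer cell genes, 39.1, 38.3, 36.4 and 35.9 for 7 stellate cell genes, 34.0, 34.1, 35.2 and 34.5 for 6 endothelial genes and 25.2, 24.3, 24.6 and 25.3 for 8 lymphocyte genes. The sums for 4 cholangiocyte genes were 15.4, 14.9, 14.8 and 14.7, for 3 erythroid genes 13.0, 13.1, 13.4 and 13.7 and for 7 hepatocyte genes 80.7, 80.9, 80.9 and 80.3. For 4 sex transcripts (Xist, Kdm5d, Eif2s3y and Uty) the sums were 23.2, 22.2, 22.4 and 21.8. Xist lay below the expression filter and was lower in KO at both ages. The other 3, which were tested, were higher in KO, by 0.07 to 0.44 at 2 months and 0.03 to 0.21 at 8 months. The sex transcript sum therefore does not describe its members as a group. The stellate, cholangiocyte and hepatocyte sums were lowest in KO at 8 months, and the Kupffer, endothelial, lymphocyte and erythroid sums were not. The largest marker difference was that of Acta2, an actin of smooth muscle and activated stellate cells, at -1.86 at 2 months and -2.01 at 8 months. The part of cell makeup, brightness and the single array in the family's values was not tested.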

How the data were processed

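The authors deposited log2 values. The submitters' processing notes name Affymetrix Expression Console (1.0v), and RMA as the method. Which arrays were normalized together, and the annotation, is not given in the sources used here. Per the labels, each of the 4 arrays holds RNA pooled over 3 mouse pairs. Arrays have no read depth, and their number limits the precision.

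Of 35556 probe sets 21789 had 1 symbol, 1621 several and 12146 none. Those with 1 symbol were averaged per gene. Identifiers were looked up in RefSeq (GRCm38.p6), which changed 0 symbols, and 91 did not match. Genes above the 40th percentile of means were tested with an additive model of genotype and age in limma 3.58.1 (R 4.3.3; lmFit, eBayes with an intensity trend, Benjamini-Hochberg over 11963 genes, threshold 0.05 on the adjusted p). Each gene leaves 1 residual degree of freedom, moderated with a prior of 11.3. The p-values therefore weigh a mean difference against its departure from additivity, and not against the spread between pools or animals. Differences between 2 arrays have no test. In 20 simulated sets of 11963 genes, 200 genes were changed by the same amount at both ages, with independent noise. On these sets the genotype test recovered 97 to 100% of 2-fold and 46 to 86% of 1.5-fold changes, and 2.52 to 32.4% of its calls were false. The data gave 1325 calls and differences that were often unequal at the 2 ages. These shares therefore do not carry over to the calls reported here.

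Members and lists were chosen with earlier results of these data known. Values are given for members past the test or 1.5-fold apart, the 8 highest and lowest by genotype, the 5 highest and lowest by age and examples by role. From each pathway list, genes past the test and examples from its extremes are named. Alternatives were other filters, the trend, 4 normalizations and 2 rules for probe sets.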

Additional observations from a re-analysis of the deposited data

Results flagged for a closer look

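The family's median differed in sign between the groups compared. Between KO and WT it was 0.01 for the younger and -0.16 for the older animals, and 8 minus 2 months was 0.04 in WT and -0.14 in KO. The value of 0.01 equals that of all tested genes and was -0.062, -0.053 and -0.074 under quantile normalization again, cyclic loess and brightest-gene centring, where the sign did not differ between the ages. Rpl34 stood out among single genes, with KO minus WT at 0.55 at 2 months and -0.44 at 8 months and with 8 minus 2 months at 0.42 in WT and -0.56 in KO. Its probe set was dim (mean 4.32), and 4 probe sets that list Rpl34 with other symbols differed by -0.28 to -0.20 at 8 months. At 2 months 1 of these 4 was at 0.27 and the other 3 were at -0.16, -0.18 and -0.18, opposite to the 0.55 of the Rpl34 probe set, and the age difference of the same 3 in WT was -0.09 to -0.03. Rpl10l, below the expression filter, was at 0.54 at 2 months and -0.59 at 8 months. With 1 array per group none of these differences between groups was tested.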

How the results depend on the processing

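The median difference between KO and WT at 8 months moved by less than 0.05 under all alternatives, and 52 of 59 members were lower under the other normalizations. The other medians were less stable. At 2 months the median was -0.062 with quantile normalization again, -0.053 with cyclic loess and -0.074 with arrays centred on the brightest 20% of genes. The age median in KO was -0.068, -0.071 and -0.065 under the same settings, and that in WT was -0.026 for genes with 1 probe set. The number of members called for genotype was 1 without the filter, 1 without the trend, 2 with median centring, 7 with quantile normalization again, 11 with cyclic loess and 16 with brightest-gene centring. Over all genes 1325 were called, 752 without the filter, 846 without the trend, 1331 with median centring, 1415 with quantile normalization again, 1967 with cyclic loess and 1968 with brightest-gene centring, and 61.5% of the calls were higher in KO, against 47.5% with brightest-gene centring. Members at least 1.5-fold apart, summed over the 4 differences, were 3, and 5 without the filter and 5 with median centring. At 1.2-fold the sum was 35 and at 2-fold 0. Including shared probe sets (79 genes, 73 lower at 8 months) and counting identical probe sets once, both chosen after seeing the data, moved no median by 0.05. Brightest-gene centring shifted the median of all genes by -0.09 at 2 months. The cause of these shifts was not tested. Leaving out an array leaves no residual degree of freedom, so no such fit was made. No paired analysis was possible because each group is 1 array and the labels carry no replicate numbers.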
